A study of Mus musculus with 6 samples.

Results

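Genes through which rods keep cones alive, and the antioxidant genes around them, were followed in whole retinas of Nrl-/- and WT mice. They are *Nxnl1*, *Nxnl2*, *Bsg*, *Txn1*, *Txnip*, *Txnrd1*, *Gpx4*, *Sod1*, *Sod2* and *Cat*. They were chosen by gene symbol and not by a rule on measured values, though with earlier results of these data known. All 10 symbols were listed, as 15 of the 15142 mRNA transcripts (10 of 12145 symbols). Retinas were taken at postnatal day 21 from 3 Nrl-/- and 3 WT mice, C57BL/6 in the labels and C57Bl/6J in the study's methods, and each mouse gave 1 RNA-seq library. Nrl-/- mice lack, in every cell, the transcription factor that commits photoreceptor precursors to the rod fate, so that their photoreceptors are cone-like. No cells were sorted, and fewer cells of a type and less RNA per cell cannot be told apart in such samples. Values are FPKM, fragments per kilobase of transcript, scaled to the mapped reads of each library, from the reads the authors aligned with BWA.

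Rods release a truncated thioredoxin-like protein, rod-derived cone viability factor (RdCVF), which is a product of *Nxnl1*. It binds a form of basigin on the cone surface and, through the glucose transporter GLUT1, raises glucose uptake by cones. A longer product of the same gene is a thioredoxin-like enzyme that protects photoreceptors from oxidation, and *Nxnl2* encodes the related RdCVF2 proteins. Thioredoxin, kept reduced by thioredoxin reductase and inhibited by TXNIP, repairs oxidised proteins. GPX4 reduces lipid peroxides with glutathione, the superoxide dismutases turn superoxide into hydrogen peroxide, and catalase breaks the peroxide down.

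The Nrl-/- libraries matched their label, with *Nrl* (NM_001136074) at 0.919 ± 0.0399 FPKM in Nrl-/- retina, against 545 ± 41.7 FPKM in WT retina (SD, n = 3 each). A transcript was called where its adjusted p by limma, corrected over all 15142 mRNA transcripts, was under 0.05. By this rule 26.7% of all transcripts were called higher and 10.1% lower in Nrl-/- retina. The median difference over all of them was 0.08 on the log2(FPKM + 1) scale, and 72.7% of the calls were higher. After 4 other scalings of the libraries, which moved that median by -0.09 to -0.08, the share of calls that were higher was 52.0% to 53.7%. Of the 15142 transcripts, 2451 to 2563 were then called higher and 2214 to 2275 lower.

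The promoters of *Nxnl1* and *Nxnl2* are shown because both genes were lower in retinas without NRL. They are RefSeq sequences on GRCm38.p6, from 250 bases before the start site to 50 bases after it, and were matched by symbol. Capitals mark matches on either strand to TGCTGAC, the letters that each subunit of an NRL dimer recognises, to its core TGCTGA, which lies within it, and to TAATCC and TAATCT, which CRX and related homeodomain proteins bind.
*Nxnl1*, chr8:71566600-71566899, minus strand: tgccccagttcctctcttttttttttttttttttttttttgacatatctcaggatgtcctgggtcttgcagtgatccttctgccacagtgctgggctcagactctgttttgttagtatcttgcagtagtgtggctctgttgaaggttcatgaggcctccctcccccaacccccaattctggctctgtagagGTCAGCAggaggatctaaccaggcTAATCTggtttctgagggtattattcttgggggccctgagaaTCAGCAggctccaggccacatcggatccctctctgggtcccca
*Nxnl2*, chr13:51170775-51171074, plus strand: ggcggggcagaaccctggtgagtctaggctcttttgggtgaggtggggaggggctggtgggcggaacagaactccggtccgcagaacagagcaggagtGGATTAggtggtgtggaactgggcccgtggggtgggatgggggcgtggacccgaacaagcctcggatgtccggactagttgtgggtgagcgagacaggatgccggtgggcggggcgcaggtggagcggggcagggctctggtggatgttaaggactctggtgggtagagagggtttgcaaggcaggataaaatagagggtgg
With the start site as base 0, the *Nxnl1* promoter held TGCTGAC on the opposite strand from -59 to -53, TAATCT on the gene's own strand from -35 to -30 and a further TGCTGA core on the opposite strand from 7 to 12. That of *Nxnl2* held TAATCC on the opposite strand from -152 to -147 and none of the other letters. TGCTGAC occurred in 4.7% of 32851 promoters of this length, TGCTGA in 19.5%, TAATCC in 7.1% and TAATCT in 8.2%. The TGCTGA core was also found in the promoter of *Cat*, which was higher in Nrl-/- retina, and, as 1 site shared by overlapping windows, in 2 of the 4 promoters of *Gpx4*. These motifs were chosen after the sequences had been seen, and a match describes letters only.

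*Nxnl1* fell to 24.6% of its WT level in Nrl-/- retina, which was the largest difference among the 15 transcripts. The gene occupies bases 74084455 to 74090548 of chromosome 8 in NCBIM37 (mm9), minus strand. The FPKM of its 1 listed transcript, NM_145598, was 23.1, 22.1 and 22.8 in the Nrl-/- libraries, against 99.4, 98.7 and 77.8 in the WT libraries. The lowest WT library thus lay far above the highest Nrl-/- library. The mean was 22.6 ± 0.499 FPKM in Nrl-/- retina and 92.0 ± 12.3 FPKM in WT retina (SD, n = 3 each). On the log2(FPKM + 1) scale the difference was -1.97 (standard error 0.09), at an adjusted p of 3.75e-07 by limma. Of the 15142 transcripts, 63 had a difference as low or lower. For qRT-PCR the study chose differing genes from these libraries, and its assays include *Nxnl1*. The study reported that qRT-PCR bore out the RNA-seq result for all the chosen genes. The direction of *Nxnl1* was thus known beforehand and is not independent evidence here. The table lists 1 transcript, so the long and the truncated product were not separated.

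*Nxnl2* fell too, by less. The gene occupies bases 51266394 to 51270556 of chromosome 13, plus strand. The FPKM of NM_029173 was 32.4, 31.4 and 33.1 in the Nrl-/- libraries, against 47.5, 48.9 and 47.8 in the WT libraries. The groups were tight and well apart, with means of 32.3 ± 0.809 FPKM in Nrl-/- retina and 48.1 ± 0.71 FPKM in WT retina (SD, n = 3 each). Nrl-/- retina kept 67.2% of the WT mean, a difference of -0.56 on the log2(FPKM + 1) scale (standard error 0.05, adjusted p = 2.98e-05 by limma). Both genes stayed called lower under all 19 other settings tried.

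The order of the paralogues differed between the genotypes. *Nxnl1* FPKM was 0.688 to 0.713 times that of *Nxnl2* in the Nrl-/- libraries, against 1.63 to 2.09 times in the WT libraries. The fall of *Nxnl1* exceeded that of *Nxnl2* by 1.41 on the log2(FPKM + 1) scale. An exact two-sided permutation test of this difference over the 6 libraries gave p = 0.1, the smallest p that 3 against 3 allows.

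**Figure D1:**
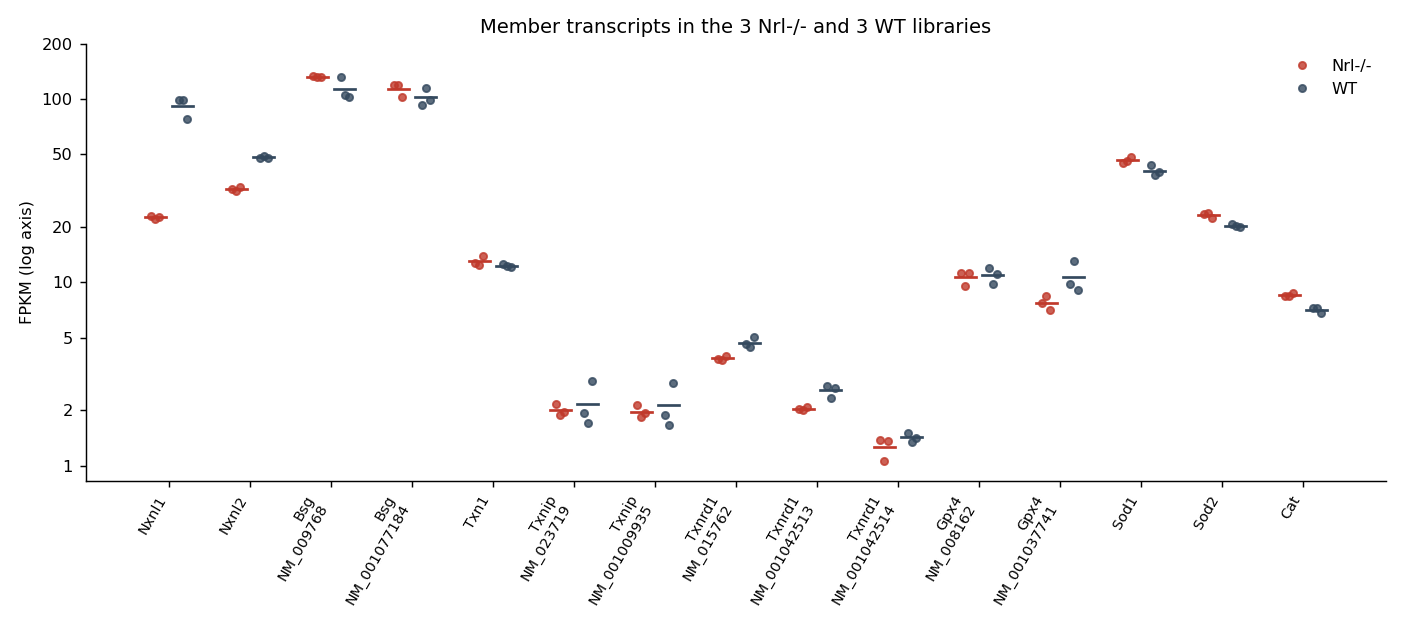
FPKM of the 15 transcripts on a log axis, with Nrl-/- libraries on the left (red) and WT libraries on the right (dark blue) of each pair; each point is 1 library and each line the mean of 3. *Nxnl1* and *Nxnl2* show the widest gaps between genotypes. *Gpx4* NM_001037741 and *Txnrd1* NM_015762 and NM_001042513 are also lower in Nrl-/- retina without overlap. *Sod1*, *Sod2* and *Cat* are higher there without overlap, and the remaining transcripts overlap.

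*Nxnl1* and *Nxnl2* both kept more of their WT level than most genes of a rod list. In a list of 12 genes of rods all 12 were called lower, with a median difference of -4.95, and the rod transducin subunit gene *Gnat1* had 0.967 ± 0.15 FPKM in Nrl-/- retina, against 4008 ± 275 FPKM in WT retina (SD, n = 3 each). The median gene of this list kept 2.38% of its WT mean, and 11 of the 12 kept less than the 24.6% of *Nxnl1*. The exception was *Gngt1*, a transducin subunit gene, at 59.3%, which was still less than the 67.2% of *Nxnl2*. The study itself reported most of this list among the most reduced transcripts of these same libraries. A strong fall was thus known beforehand, and the comparison does not extend to rod genes that fell less. In a list of 11 cone genes 10 were called higher and 0 lower, with a median difference of 3.46; at an unadjusted p under 0.05 limma also gave 10 and 0, as did an ordinary linear model. The cone gene not called was *Thrb*, the thyroid hormone receptor that directs M opsin expression, at 12.2 ± 0.735 FPKM in Nrl-/- retina and 11.1 ± 0.399 FPKM in WT retina (SD, n = 3 each). The summed FPKM of the rod list was 285 to 299 in the Nrl-/- libraries and 6892 to 7656 in the WT libraries. That of the cone list was 6639 to 6818 in the Nrl-/- libraries and 574 to 692 in the WT libraries. The part of this change of cell makeup in the results on the 10 genes was not tested.

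**Figure D2:**
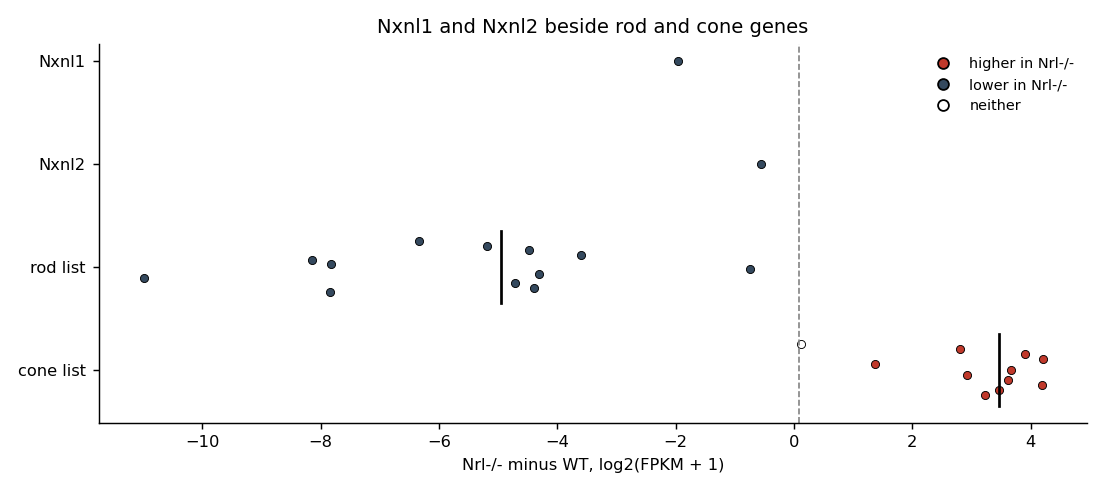
Difference between Nrl-/- and WT retina in log2(FPKM + 1) for *Nxnl1*, *Nxnl2*, 12 rod genes and 11 cone genes; each point is 1 gene, short black lines are list medians and the dashed line is the median over all symbols. *Nxnl1* at -1.97 and *Nxnl2* at -0.56 lie right of the rod median of -4.95 and left of every cone gene.

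The genes with the profile nearest to *Nxnl1* over the 6 libraries, by Euclidean distance of log2(FPKM + 1) less each gene's mean, were *Prph2*, *Csda* and *Slco4a1*, at distances of 0.175, 0.216 and 0.224. *Prph2*, which encodes a protein of photoreceptor disc rims, differed by -1.98, with 366 FPKM in Nrl-/- retina and 1449 FPKM in WT retina on average. Those nearest to *Nxnl2* were *Wdr47*, *Bcl2l11* and *Cep350*, at 0.036, 0.080 and 0.080. *Bcl2l11* was low, with 0.566 FPKM in Nrl-/- retina and 1.35 FPKM in WT retina on average. At such levels adding 1 to the FPKM shrinks the difference, so its fall in FPKM was not of the size of that of *Nxnl2*. The nearest profiles are descriptions of likeness over 6 libraries of the 2 genotypes.

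*Bsg*, the gene of the basigin receptor, was the most abundant of the 10 genes in both genotypes and was not called. The FPKM of NM_009768 was 134, 132 and 132 in the Nrl-/- libraries, against 132, 106 and 102 in the WT libraries. WT replicate 1 was as high as the Nrl-/- libraries, and the other 2 WT libraries were lower. The difference was 0.23 on the log2(FPKM + 1) scale (standard error 0.09, adjusted p = 0.0735 by limma). The FPKM of the other transcript, NM_001077184, was 120.1, 120.1 and 102 in the Nrl-/- libraries, against 92.7, 114 and 99.4 in the WT libraries. These groups overlapped as well, and the difference was 0.16 (standard error 0.09, adjusted p = 0.205 by limma). The share of NM_009768 in the summed FPKM of *Bsg* was 53.8% ± 2.27 in Nrl-/- retina and 52.5% ± 5.6 in WT retina (SD, n = 3 each), and the changes of the 2 transcripts differed by 0.07 (p = 0.8 by an exact two-sided permutation test, which cannot go below 0.1 here). The sum of both was 247 ± 10.7 FPKM in Nrl-/- retina and 216 ± 12.4 FPKM in WT retina (SD, n = 3 each), and this sum was called higher, with an adjusted p of 0.035 by limma over all symbols. NM_009768 was called without WT replicate 1, at a difference of 0.35 and an adjusted p of 0.00133. Under the 4 scalings it was at 0.05 to 0.13 (adjusted p from 0.27 to 0.663) and NM_001077184 at 0.03 to 0.06 (0.649 to 0.866).

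Among 10 genes of basigin partners and lactate transport 2 were called higher and 1 lower, with a median difference of 0.01 (0.09 over all symbols). Over the same single transcript per symbol, 28.3% of all symbols were called higher and 10.2% lower. The gene called lower was *Slc16a1*, which encodes the lactate transporter MCT1 that basigin carries to the membrane, at 32.4 ± 1.78 FPKM in Nrl-/- retina and 48.9 ± 2.77 FPKM in WT retina (SD, n = 3 each). Its difference was -0.58 (adjusted p = 0.000123 by limma), close in size to that of *Nxnl2*. *Nptn*, the gene of the basigin relative neuroplastin, was at 92.3 ± 0.745 FPKM in Nrl-/- retina and 76.3 ± 5.07 FPKM in WT retina, and *Slc16a7*, which encodes the lactate transporter MCT2, at 2.73 ± 0.0928 FPKM in Nrl-/- retina and 2.08 ± 0.287 FPKM in WT retina (SD, n = 3 each). Both calls of higher were lost under each of the 4 scalings, and that of *Slc16a1* was kept. *Slc2a1*, the GLUT1 gene, had 68.6 ± 7.15 FPKM in Nrl-/- retina and 54.9 ± 9.06 FPKM in WT retina (SD, n = 3 each) and was not called. Basigin and GLUT1 are also made by pigment epithelium, whose 8 listed marker genes summed to 33.6 to 52.1 FPKM in the Nrl-/- libraries and 12.8 to 87.2 FPKM in the WT libraries. None of these 8 markers was called and none was at 0, and the part of this tissue in the *Bsg* values was not tested.

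*Txn1*, which encodes cytosolic thioredoxin, was nearly level between genotypes. Its FPKM was 12.8, 12.5 and 13.9 in the Nrl-/- libraries, against 12.5, 12.3 and 12.1 in the WT libraries. The ranges overlapped, and the difference was 0.08 (standard error 0.06, adjusted p = 0.333 by limma). Its sign was negative, at -0.02 to -0.01, under each of the 4 scalings.

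*Txnip*, the gene of the thioredoxin inhibitor, was low throughout. The study had already listed it as not differing in these libraries, and its qRT-PCR did not bear out the difference of an earlier microarray study. The FPKM of NM_023719 was 2.18, 1.89 and 1.97 in the Nrl-/- libraries, against 1.93, 1.71 and 2.89 in the WT libraries. WT replicate 3 was the highest of the 6, and the other 2 WT libraries lay within or below the Nrl-/- range. The difference was -0.06 (standard error 0.13, adjusted p = 0.753 by limma), and 0.10 without WT replicate 3. The other transcript, NM_001009935, stood 0.02 below on the log2(FPKM + 1) scale in each of the 6 libraries, so the 2 rows are not separate measurements. A long noncoding gene, *Gm15441*, overlaps *Txnip* on the opposite strand, and the reads carry no strand, so reads from the overlap could be counted to either.

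*Txnrd1*, the gene of cytosolic thioredoxin reductase, was lower in Nrl-/- retina by 2 of its 3 transcripts. The FPKM of NM_015762 was 3.82, 3.79 and 3.96 in the Nrl-/- libraries, against 4.62, 4.43 and 5.02 in the WT libraries. That of NM_001042513 was 2.03, 2.01 and 2.10 in the Nrl-/- libraries, against 2.73, 2.34 and 2.66 in the WT libraries. In both, every Nrl-/- library lay below every WT library, which held for 14.2% of all transcripts. Their differences were -0.23 (standard error 0.07, adjusted p = 0.0289 by limma) and -0.23 (standard error 0.08, adjusted p = 0.0421). The third, NM_001042514, had 1.38, 1.06 and 1.36 FPKM in the Nrl-/- libraries, against 1.51, 1.35 and 1.41 FPKM in the WT libraries, which overlapped, with a difference of -0.10 (standard error 0.09, adjusted p = 0.428). Both calls stood under the 4 scalings (adjusted p from 0.00757 to 0.0163). Without 1 library that of NM_015762 was lost in 4 of 6 cases, at adjusted p of 0.0571 without WT replicate 3 and 0.103, 0.107 and 0.0606 without Nrl-/- replicates 1, 2 and 3, and that of NM_001042513 in 5 of 6, each library but WT replicate 2, at 0.0764 to 0.131. The sum of the 3 transcripts was called lower, with an adjusted p of 0.0138 by limma over all symbols.

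In a list of 15 genes of the thioredoxin system, 14 were listed, of which 5 were called higher and 3 lower. Over all symbols 28.3% were called higher and 10.2% lower, and the median difference of the list was 0.18. The 3 lower ones were *Nxnl1*, *Nxnl2* and *Txnrd1*. The largest rise was that of *Msrb2*, the mitochondrial methionine sulfoxide reductase gene, at 4.68 ± 0.314 FPKM in Nrl-/- retina and 2.81 ± 0.245 FPKM in WT retina (SD, n = 3 each), a difference of 0.58 (adjusted p = 0.000492 by limma). *Nxn*, which encodes nucleoredoxin, the founding relative of the *Nxnl* proteins, differed by 0.33 (adjusted p = 0.0257), opposite in sign to *Nxnl1* and *Nxnl2*. Under the 4 scalings 1 or 2 of the list stayed called higher, *Msrb2* each time and *Nxn* never, and the 3 lower ones stayed.

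The peroxiredoxins, most of which reduce peroxides with electrons from thioredoxin, included several higher genes. In a list of 7, made of peroxiredoxin genes and *Srxn1*, 4 were called higher and 1 lower, with a median difference of 0.18. Over all symbols 28.3% were called higher and 10.2% lower. Under the 4 scalings 2 or 3 were called higher and 1 lower. The mitochondrial *Prdx3* had 27.1 ± 1.75 FPKM in Nrl-/- retina and 17.1 ± 1.12 FPKM in WT retina, a difference of 0.64 (adjusted p = 0.000113 by limma). *Prdx2* had 105 ± 4.12 FPKM in Nrl-/- retina and 67.9 ± 2.74 FPKM in WT retina (SD, n = 3 each), a difference of 0.62 (adjusted p = 3.28e-05). Both stayed called under all 4 scalings, *Prdx6* at a difference of 0.41 under 3 of them. The one called lower, at -0.23, was *Srxn1*, whose product sulfiredoxin restores overoxidised peroxiredoxins.

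*Gpx4* was lower by 1 of its 2 transcripts. The FPKM of NM_001037741 was 7.69, 8.45 and 7.06 in the Nrl-/- libraries, against 9.85, 13.03 and 9.06 in the WT libraries. WT replicate 2 was the highest and the groups did not overlap, with a difference of -0.40 (standard error 0.12, adjusted p = 0.0265 by limma). The FPKM of NM_008162 was 11.2, 9.56 and 11.2 in the Nrl-/- libraries, against 11.996, 9.85 and 11.04 in the WT libraries. These overlapped, with a difference of -0.04 (standard error 0.09, adjusted p = 0.774). WT replicate 2, the highest library of the first transcript, was the lowest WT library of the second. The changes of the 2 transcripts differed by 0.37, with p = 0.3 by an exact two-sided permutation test over the libraries, which cannot go below 0.1. The call of NM_001037741 was lost without WT replicate 2 (a difference of -0.26, adjusted p = 0.0512), without Nrl-/- replicate 1 (0.0693) or 3 (0.096), and by an ordinary linear model on all 6 libraries (0.146). Summed over both, *Gpx4* had 18.4 ± 0.463 FPKM in Nrl-/- retina and 21.6 ± 1.41 FPKM in WT retina (SD, n = 3 each). This sum was called lower, with an adjusted p of 0.0164 by limma over all symbols.

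The level of *Gpx4* is uncertain. A stretch of chromosome 10 from 45595140 to 45595872 (NCBIM37) is 99.7% identical to the mRNA over 733 bases, which is 73.7% of the longest transcript, and holds no annotated gene. Of the possible 70-base reads of its 2 annotated coding transcripts, 59.4% to 61.0% lie within 1 exon, and the BWA alignment does not span junctions. Over the annotated coding transcripts of the other 9 genes this share ran from 52.2% (*Sod1*) to 97.5% (*Nxnl1*). The authors' TopHat table has 1 pooled value per genotype and no replicates. There the 5 transcripts of *Gpx4* summed to 119 FPKM in Nrl-/- retina and 135 FPKM in WT retina. That is 6.46 times the BWA sum in Nrl-/- retina and 6.25 times in WT retina, against 0.940 to 1.49 times for the other 9 genes. The ratio of Nrl-/- to WT retina was 0.881 by TopHat and 0.851 by BWA. The part of the copy and of the junctions in this gap was not tested.

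**Figure D3:**
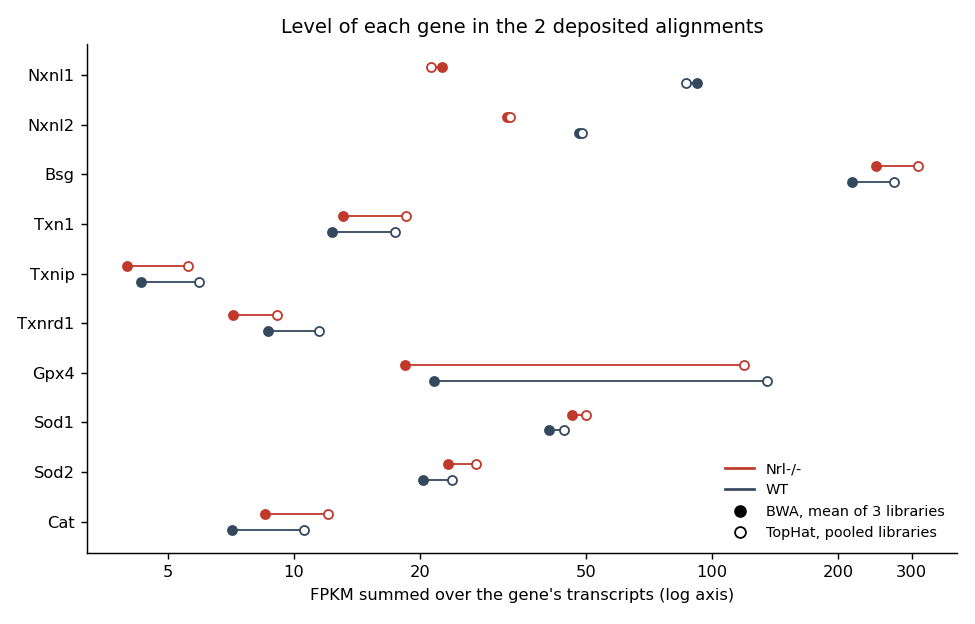
Level of each of the 10 genes in FPKM, summed over its transcripts, on a log axis; filled points are BWA means of 3 libraries, open points are TopHat values of the pooled libraries, with Nrl-/- (red) above WT (dark blue). *Gpx4* alone lies far apart between the alignments, at 18.4 and 119 FPKM in Nrl-/- retina, and *Nxnl1* and *Nxnl2* lie almost at the same place in both.

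Many genes of the glutathione system were higher in Nrl-/- retina. Of 28 genes 24 were listed, of which 14 were called higher and 0 lower by limma, beside 28.3% and 10.2% of all symbols, and at an unadjusted p under 0.05 these counts were 15 and 1. The ordinary linear model gave 7 and 0. The median difference was 0.24. *Gclc*, the catalytic subunit of the enzyme that limits glutathione synthesis, had 15.0 ± 0.449 FPKM in Nrl-/- retina and 9.68 ± 0.362 FPKM in WT retina (SD, n = 3 each), a difference of 0.58 (adjusted p = 6.03e-05 by limma). The glutathione reductase gene *Gsr* differed by 0.45, *Mgst3*, a microsomal glutathione transferase gene, by 0.45 and *Gpx8* by 0.44. These 4 stayed called higher under every scaling, where the list's counts were 6 or 7 higher and 1 lower.

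*Sod1*, *Sod2* and *Cat* were each slightly higher in Nrl-/- retina, with no overlap between genotypes. Every Nrl-/- library lay above every WT library in 34.9% of all transcripts. *Cat*, the catalase gene, on chromosome 2 from 103294006 to 103325317, had 8.45, 8.45 and 8.71 FPKM in the Nrl-/- libraries, against 7.28, 7.22 and 6.78 FPKM in the WT libraries. Its difference was 0.24 (standard error 0.06, adjusted p = 0.0122 by limma). *Sod2*, the mitochondrial dismutase gene, had 23.6, 23.9 and 22.6 FPKM in the Nrl-/- libraries, against 20.7, 20.3 and 20.1 FPKM in the WT libraries. Its difference was 0.19 (standard error 0.05, adjusted p = 0.0186). *Sod1*, the cytosolic dismutase gene, had 44.6, 46.2 and 48.2 FPKM in the Nrl-/- libraries, against 43.9, 38.4 and 39.8 FPKM in the WT libraries. Its difference was 0.18 (standard error 0.06), and with an adjusted p of 0.0503 it was not called.

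The median difference over all transcripts was 0.08. Under the 4 scalings *Cat* was at 0.14 to 0.16 (adjusted p from 0.0671 to 0.0999), *Sod2* at 0.06 to 0.09 (0.192 to 0.383) and *Sod1* at 0.05 to 0.09 (0.343 to 0.613), so that none was called. On the deposited scale the call of *Cat* was lost without Nrl-/- replicate 1 (adjusted p = 0.0501), that of *Sod2* without Nrl-/- replicate 1 (0.0872) or 2 (0.0999), and *Sod1* was called without WT replicate 1 (0.0113). By limma *Sod1* was also called under each minimum FPKM (adjusted p of 0.0479 and 0.0424) and with FPKM summed per symbol (0.0411). A copy of the *Sod1* mRNA on chromosome 6, the pseudogene *Gm8566*, is 97.2% identical over 94.7% of the transcript. The TopHat table gives *Gm8566* 99.2 FPKM in Nrl-/- retina and 86.8 FPKM in WT retina, against 49.9 and 44.2 FPKM for *Sod1*, and reads of the 2 could not be told apart here. *Txn1* has a copy on chromosome 1 that is 95.7% identical over 50.3% of its transcript. In *Sod2*, 36.8% of the transcript resembles 665 other places, and no copy of at least 70 bases and 95% identity was found for *Nxnl1*, *Nxnl2*, *Bsg*, *Txnip*, *Txnrd1* or *Cat*.

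In the list of the 3 superoxide dismutase genes, *Ccs* and *Cat*, 3 of 5 were called higher and 0 lower by limma. Over all symbols 28.3% were called higher and 10.2% lower, and the median difference of the list was 0.24. At an unadjusted p under 0.05 the counts were 4 and 0, and by an ordinary linear model 2 and 0. *Ccs*, which loads copper onto SOD1, had 11.7 ± 0.49 FPKM in Nrl-/- retina and 9.15 ± 0.861 FPKM in WT retina (SD, n = 3 each), a difference of 0.33 (adjusted p = 0.00801), and stayed called under 3 of the 4 scalings. Some genes of other cells were also called. Of 10 Muller glia genes 5 were called higher, beside 28.3% of all symbols, though under each of the 4 scalings 2 were called higher and 1 lower. Their sum was 1113 to 1194 FPKM in the Nrl-/- libraries and 1037 to 1118 FPKM in the WT libraries. Of 8 listed microglia genes 4 were called higher, *C1qa*, *C1qb*, *C1qc* and *Tyrobp*, and 3 under each of the 4 scalings. The others were not called, with *Csf1r* at 0.08, *Cx3cr1* at -0.11, *Fcer1g* at -0.08 and *P2ry12* at -0.04. The 8 genes summed to 17.3 to 19.8 FPKM in the Nrl-/- libraries and 13.6 to 15.6 FPKM in the WT libraries. None of these 18 genes was at 0, and their part in the antioxidant results was not tested.

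*Nfe2l2*, the gene of NRF2, the transcription factor that switches on many antioxidant genes, had 14.3 ± 0.906 FPKM in Nrl-/- retina and 9.43 ± 0.795 FPKM in WT retina (SD, n = 3 each). Its difference was 0.55 (adjusted p = 0.000453 by limma). Of the 9 genes of its pathway 4 were called higher and 0 lower, beside 28.3% and 10.2% of all symbols. The median difference of the 9 was 0.18. At an unadjusted p under 0.05 the counts were 4 and 1. *Bach1*, a repressor at NRF2 sites, was called at 0.48, *Hmox2* at 0.36 and *Park7* at 0.28. The inducible NRF2 targets *Hmox1* and *Nqo1* had 1.06 ± 0.155 and 1.14 ± 0.203 FPKM in Nrl-/- retina, against 1.07 ± 0.18 and 1.56 ± 0.136 FPKM in WT retina (SD, n = 3 each), and were not called. *Nqo1* was called lower under all 4 scalings.

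GPX4 and the thioredoxin reductases contain selenocysteine. Of 9 genes of selenoprotein synthesis and selenium supply 1 was called higher and 2 lower, beside 28.3% and 10.2% of all symbols. The median difference of the 9 was 0.06. *Sephs2*, which makes the selenium donor, had 10.6 ± 0.475 FPKM in Nrl-/- retina and 15.2 ± 0.837 FPKM in WT retina (SD, n = 3 each), a difference of -0.48 (adjusted p = 0.000356 by limma). *Lrp8*, the gene of a selenoprotein P receptor, was called at -0.29 (adjusted p = 0.0126), and *Sepsecs*, the enzyme that forms selenocysteine on its tRNA, at 0.27 (adjusted p = 0.0148). Both lower calls stood under all 4 scalings and that of *Sepsecs* under none.

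**Figure D4:**
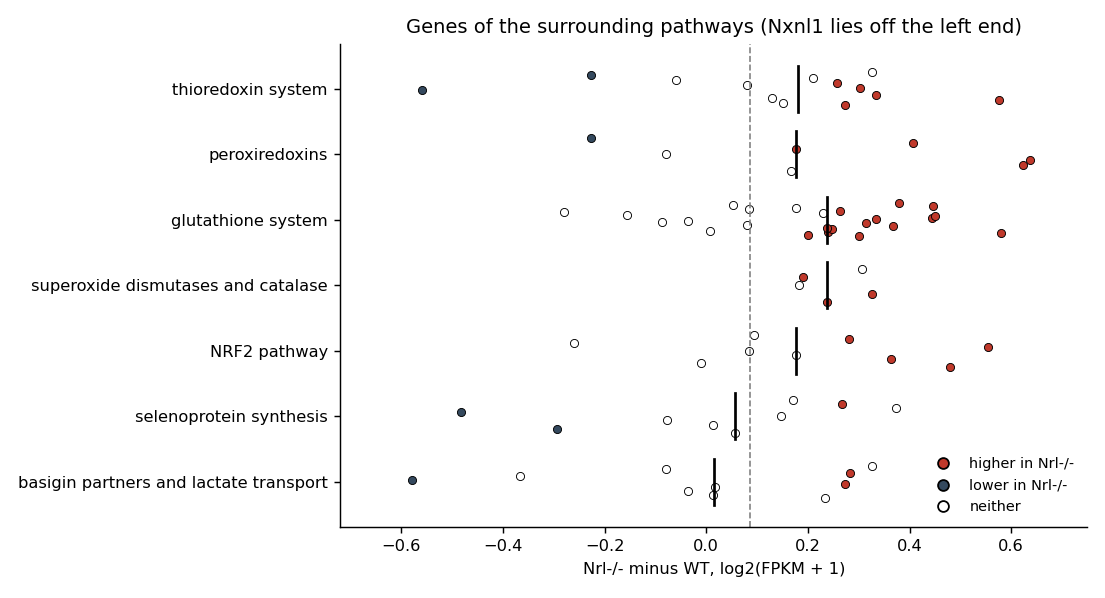
Difference between Nrl-/- and WT retina in log2(FPKM + 1) for the genes of 7 pathway lists; each point is 1 gene, filled where called, short black lines are list medians and the dashed line is the median of 0.09 over all symbols. Most called genes of the peroxiredoxin, glutathione and NRF2 lists lie right of the dashed line, while *Slc16a1* at -0.58, *Nxnl2* at -0.56 and *Sephs2* at -0.48 lie left of it; *Nxnl1*, at -1.97, is off the axis.

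Over the 15 transcripts of the 10 genes, 2 were called higher (*Sod2* and *Cat*) and 5 lower (*Nxnl1*, *Nxnl2*, *Gpx4* and the *Txnrd1* pair), beside the 26.7% and 10.1% of all transcripts. With 1 transcript per symbol, 2 of the 10 genes were called higher and 3 lower, beside 28.3% and 10.2% of all symbols. The 15 transcripts had a median difference of -0.06, against 0.08 over all transcripts. Of the 15, 12 differed by less than 1.2-fold on the log2(FPKM + 1) scale. Under each of the 4 scalings 0 of the 15 were called higher and 5 lower, and 1 higher at an unadjusted p under 0.05. Of all 15142 transcripts, 2451 to 2563 were called higher and 2214 to 2275 lower under these scalings. *Txnrd1* transcripts were split in opposite ways by the TopHat table, at 1.32 FPKM in Nrl-/- retina and 7.60 FPKM in WT retina for one and at 7.79 FPKM in Nrl-/- retina and 3.90 FPKM in WT retina for the other. With 1 pooled value per genotype that split has no replicate check.

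**Figure D5:**
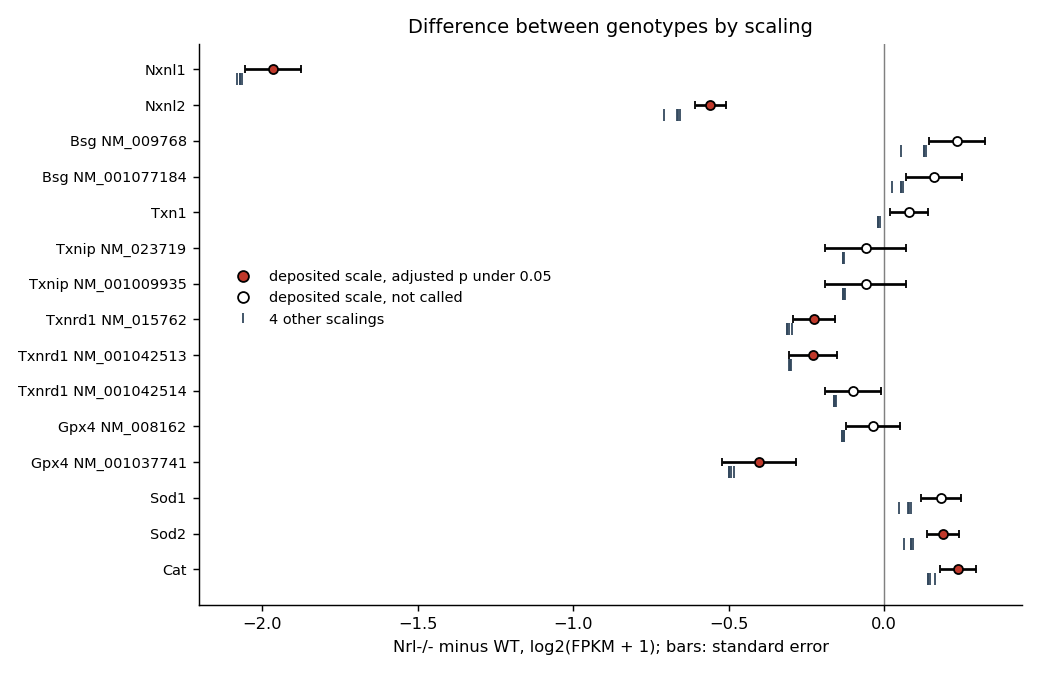
Difference between Nrl-/- and WT retina in log2(FPKM + 1) for the 15 transcripts on the deposited scale, with the standard error as a bar, and under 4 other scalings as ticks; filled points had an adjusted p under 0.05. The scalings move every transcript to the left, which leaves *Nxnl1* near -2 and brings *Sod2* and *Sod1* within 0.1 of 0.

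By level per length in the BWA values, summed over each gene's transcripts, *Bsg* stood first in both genotypes. The place of *Gpx4* holds for BWA only, since the pooled TopHat values of 119 FPKM in Nrl-/- retina and 135 FPKM in WT retina would put it next to *Bsg*. In Nrl-/- retina *Bsg* was followed by *Sod1*, *Nxnl2*, *Sod2*, *Nxnl1*, *Gpx4*, *Txn1*, *Cat*, *Txnrd1* and *Txnip*. Among neighbours in this order only the ranges of *Sod2* and *Nxnl1* overlapped. In WT retina *Bsg* was followed by *Nxnl1*, *Nxnl2*, *Sod1*, *Gpx4*, *Sod2*, *Txn1*, *Txnrd1*, *Cat* and *Txnip*, where only the ranges of *Gpx4* and *Sod2* overlapped. *Nxnl1* thus stood behind *Sod1*, *Nxnl2* and *Sod2* in Nrl-/- retina and ahead of all 3 in WT retina. Its percentile among all symbols was 83.4 in Nrl-/- retina and 98.3 in WT retina.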

How the data were processed

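RNA from the retinas of 3 Nrl-/- and 3 WT mice was sequenced with TruSeq libraries as 70-nucleotide single reads on an Illumina GAIIx, and reads were not realigned here. The authors aligned them to mm9 with BWA and estimated FPKM per refFlat transcript in Partek. The deposited BWA tables hold log2 values, log2(FPKM + 1) to 2 decimals, kept where any of the 6 libraries reached an FPKM of 1, and 0 per-library columns were unmapped. The deposited TopHat tables hold 1 pooled FPKM per genotype on Ensembl transcripts and were not tested. Columns and lists with the authors' own averages, fold changes and p-values were not used. The study reported reads and alignments per library, with the fewest for its WT sample 1, and these were not used here. Read counts per transcript are not in the deposited values, which leaves counting error unknown, and errors are the spread of 3 libraries per genotype.

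Genotypes were compared with limma 3.58.1 (R 4.3.3), by a linear model of genotype on log2(FPKM + 1) with a trend in the prior variance and Benjamini-Hochberg adjustment over 15142 mRNA transcripts. Adding 1 to the FPKM shrinks the differences of low transcripts. The fit was tested on simulated data. Isoforms were compared by exact permutation over the 20 splits. FPKM is 2 to the deposited value less 1. Lists count 1 transcript per symbol, that of highest mean FPKM, and up to 4 called members of largest difference are named, or up to 3 of highest FPKM where none was called. *Slc2a1*, *Hmox1*, *Nqo1*, *Thrb* and *Gngt1* are named outside this rule, after their values were seen. Genes and lists were chosen with earlier results of these data known. Positions are from the GENCODE annotation of NCBIM37, and copies were found with BLAST+ 2.17.0. Plots were made with matplotlib 3.10.9 in Python 3.11.15. The other settings were a pseudocount of 0.1 or 0.5, a minimum FPKM of 1 in 3 libraries or of 5 in 1, an unmoderated (ordinary) linear model, limma with no trend, a robust prior in limma, 4 scalings (median-of-ratios, upper-quartile, quantile, and without the 25 highest transcripts), a replicate block, leaving out each library, and FPKM summed per symbol.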

Additional observations from a re-analysis of the deposited data

How the results depend on the processing

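Of 272 comparisons of the 15 transcripts with another setting, 233 kept direction and call, 25 lost a call, 6 gained one and 8 changed sign. *Nxnl1* and *Nxnl2* kept both throughout, with adjusted p of at most 0.00233 and 0.00114 from limma or the ordinary linear model. Under median-of-ratios, upper-quartile and quantile scaling and the scaling without the 25 highest transcripts, 2463, 2455, 2451 and 2563 of all mRNA transcripts were called higher, against 4047 on the deposited scale, and 0 of the members; the cause was not tested. *Txn1* was at -0.019, -0.020, -0.020 and -0.013 there. With FPKM summed per symbol 4 of the 10 genes were called higher and 4 lower, beside 3681 and 1348 of all 12145 symbols. With 1 library left out, 0 to 4 member transcripts were called higher and 2 to 4 lower, and 2784 to 4180 of all transcripts were called higher and 1122 to 1578 lower. In these fits *Txnip* was at -0.17 to 0.10 (NM_023719) and -0.17 to 0.10 (NM_001009935), and *Gpx4* NM_008162 at -0.105 to 0.033. Deviations from the group means correlated at 0.0286, 0.0237 and 0.124 between like-numbered libraries, so replicate numbers were not treated as pairs. With a replicate block 3973 transcripts were called higher and 1520 lower, of the members 3 and 4: *Bsg* NM_009768 was gained (adjusted p = 0.0447) and *Txnrd1* NM_001042513 lost (0.0642). With 3 libraries per genotype and values to 2 decimals, differences near 0.2 changed call with 1 library.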

Other observations

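Of 10 vessel genes 2 were called higher and 1 lower by limma, beside 28.3% and 10.2% of all symbols. The pericyte gene *Rgs5* differed by 0.59 and the endothelial gene *Esam* by 0.33, and *Kdr*, the gene of a VEGF receptor, by -0.44. Of 7 listed erythrocyte genes 0 were called in either direction, with 0 higher and 1 lower at an unadjusted p under 0.05 and 0 and 0 by an ordinary linear model. Their summed FPKM was 186 to 188 in the Nrl-/- libraries and 166 to 181 in the WT libraries, most of it from *Car2*, which Muller glia also express.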
